A study of Danio rerio with 8 samples.

Results

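The livers of zebrafish carrying a Myc transgene were set against those of their wild-type siblings, across both treatments of a 4-group design. The 4 transgenic libraries (M+D- and M+D+, 2 each) were compared with the 4 wild-type libraries (M-D- and M-D+, 2 each), grouped by sample title, with doxycycline as a covariate. All 8 libraries of the series enter. Of 15600 transcript rows, 4577 held at least 5 CPM (tag counts scaled to a common library total) in 2 or more libraries and were tested. The question was which rows stood higher or lower with the transgene whether or not doxycycline was given.

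The transgenic fish are labelled Tg(fabp10:TA; TRE:Myc; krt4:GFP). The fabp10 promoter drives a transactivator in liver cells, the TRE element places Myc under that transactivator, and krt4:GFP is a reporter. M+D- fish had this genotype and no doxycycline, and M-D- fish were wild type with no doxycycline. M+D+ fish had the transgene and doxycycline, and the submitters call these libraries liver tumor, while M-D+ fish were wild type on doxycycline. Treatment started at 21 days after fertilization in 6-L tanks of around 25 adults. All libraries are from liver total RNA, read on the SOLiD platform by 3' RNA-SAGE, a method that takes 1 short sequence tag close to the poly(A) end of a transcript and counts it. Whether both libraries of a group are from different fish, or from pools, is not in the labels used here, and the p-values cover only the library spread, which may be technical. The sex of the fish and their age at collection are not in the labels used here.

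Myc is a transcription factor that binds DNA with its partner Max. It is known for raising genes of ribosome production, translation and nucleotide synthesis. In a doxycycline-dependent (Tet-On) system the transactivator binds its target element when the drug is present, and some target expression without drug is a known property of such systems. The liver is also an organ of protein secretion, so genes of the endoplasmic reticulum and of protein turnover are highly active in it.

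The smallest library held 1682372 tags (M-D+ library 1) and the largest 6399932 (M+D+ library 1), so that a listed 0 permits levels below 0.469 to 1.783 CPM, the worth of 3 tags, for counting error alone. Across rows, the Pearson r of log2 levels between libraries of the same group was 0.968 and 0.927 in the transgenic groups (M+D- first, then M+D+), and 0.961 for M-D- and 0.891 for M-D+. The M-D+ libraries stood apart in composition. TMM factors (trimmed mean of M values, a scaling set by the bulk of rows) were 0.701 to 0.957 in the 4 transgenic libraries, and among wild-type libraries 0.817 and 0.961 for M-D- but 1.71 and 1.42 for M-D+. CPM are shares of a library, so counts of calls are given on deposited CPM and after TMM scaling. Hepatocyte markers fabp10a, apoa1a, serpina1 and fgb were present in all 8 libraries, and tfa was not listed. In these bulk samples, fewer cells of a type and less RNA per cell cannot be told apart.

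Transgenic livers carried far more pabpc4 transcript than wild-type livers in both treatments, 22.2-fold on average. Further rows that stood higher in all 4 transgenic libraries were sesn1 and eif4ebp3l, members of families known to restrain growth signalling or translation, and the glycolytic pgam2. Their log2 differences were 1.95 to 2.0 on deposited CPM and 2.36 to 2.45 after TMM scaling. Rows that stood lower in all 4 transgenic libraries were vcp, hspd1, tubb2b, eif4a1a and canx, of protein turnover, folding, the cytoskeleton and translation. These differed by -1.84 to -2.84 on deposited CPM and by -1.38 to -2.39 after TMM scaling. Of the rows named so far, pabpc4 passed the test on deposited CPM, and the others after TMM scaling. Another sestrin gene, sesn3, lay below in all 4 transgenic libraries on deposited CPM, but not after TMM scaling.

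On deposited CPM, 1 row passed the test for the transgene with doxycycline as a covariate, and it rose. This was pabpc4 (NM_201296), whose product coats the poly(A) tails of mRNA in the cytoplasm (1 of 4577 rows higher, 0.0218%, and 0 lower, 0%, limma with Benjamini-Hochberg adjustment, threshold 0.05). At an unadjusted p under 0.05, 121 rows were higher (2.64%) and 1122 lower (24.5%), and the next smallest adjusted p after pabpc4 was 0.067 (limma). After TMM scaling, limma called 112 rows, 39 higher (0.852%) and 73 lower (1.59%). On the recovered whole tags, edgeR called 17 higher (0.371%) and 20 lower (0.437%), all 37 also called the same way by limma after TMM scaling, and DESeq2 called 210 higher (4.59%) and 236 lower (5.16%). A fit of 4 group means also takes any difference in the transgene effect between treatments out of the residual spread. On deposited CPM it called 92 rows higher and 1008 lower for the mean of both treatments' differences.

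Each of the 112 rows called after TMM scaling had the same sign without and with doxycycline (62.3% of all rows did). Of them, 97 did not overlap between 4 transgenic and 4 wild-type libraries in CPM (1.42% of all rows lay above and 13.7% below). The call used the same libraries, so both counts largely follow from it and are not separate support. None of the 112 was called for the interaction of genotype and doxycycline after TMM scaling, where that test called 5 rows in all (5 higher, 0.109%, and 0 lower, limma). The additive fit counts an interaction as residual spread and so favours rows without one. The absence of such calls therefore does not show equal effects in both treatments. A symbol was available for 95 of the 112 rows, 33 higher and 62 lower. The count fell with each library left out. Leaving out any 1 transgenic library left 0 to 2 calls, leaving out M-D- library 1 or M-D+ library 1 left 0, and leaving out M-D- library 2 or M-D+ library 2 left 41 and 48 (limma after TMM scaling). Of the 112 rows, 58 were called in none of these 8 fits, 33 in 1, 19 in 2, and sesn1 and pabpc4 in 3.

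**Figure D1:**
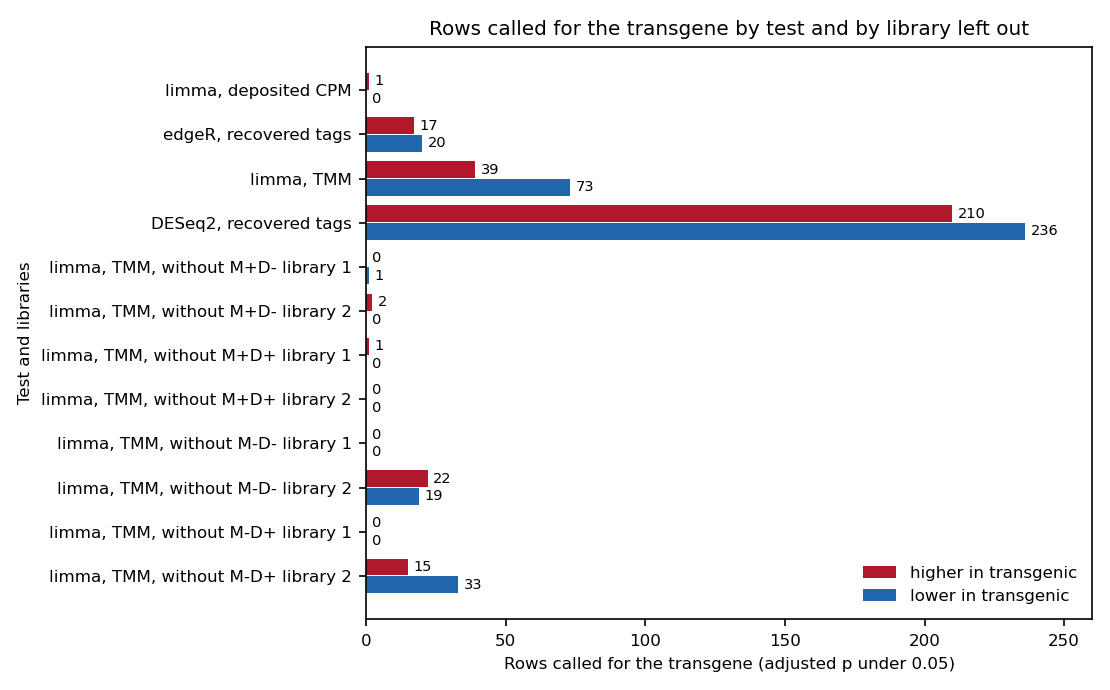
The bars count rows called for the transgene at an adjusted p under 0.05 (x axis, number of rows), red for higher and blue for lower in transgenic livers, for 4 tests and for limma after TMM scaling with 1 library left out (y axis). The counts run from 1 row (limma on deposited CPM) to 446 (DESeq2) with all libraries, and from 0 to 48 when 1 library is left out.

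The 2 treatments were unequal in how many rows differed. Without doxycycline (M+D- against M-D-), 0 of 4577 rows were called on deposited CPM (0%; limma, smallest adjusted p 0.246), with 419 rows at an unadjusted p under 0.05 (9.15%), 0 calls by limma after TMM scaling (497 at an unadjusted p under 0.05, 10.9%), 0 by edgeR and 38 by DESeq2. With doxycycline (M+D+ against M-D+), 114 rows were higher (2.49%) and 1909 lower (41.7%) on deposited CPM, and 354 higher (7.73%) and 334 lower (7.3%) after TMM scaling (limma). The interaction was called for 12 rows higher (0.262%) and 365 lower (7.97%) on deposited CPM (limma). These interaction calls numbered 0 or 1 when any 1 library without doxycycline or M+D+ library 1 was left out, and 202 without M+D+ library 2. Calls with doxycycline numbered 1057 without M+D+ library 1. Of the 112 rows called for the transgene after TMM scaling, 102 were also called with doxycycline alone on that scale.

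Rows that differed without doxycycline were set against the other treatment, which shares no library with it. Of 301 rows at least 1 log2 unit higher without doxycycline on deposited CPM, 84 (27.9%) were also higher with doxycycline, where 14.5% of all rows were higher. After TMM scaling these numbers were 169 of 264 (64.0%), where 44.2% of all rows were higher. Of 262 rows at least 1 log2 unit lower without doxycycline on deposited CPM, 249 (95.0%) were also lower with it, where 85.5% of all rows were lower, and after TMM scaling 248 of 297 (83.5%), where 55.8% were lower. Across the 4577 rows the 2 differences had a Pearson r of 0.302 on deposited CPM and 0.312 after TMM scaling, as a description only, since rows share library totals and genes are not independent replicates. Rows of the same sign in both treatments numbered 457 higher (9.98%) and 1933 lower (42.2%) on deposited CPM, and 1249 higher (27.3%) and 1604 lower (35%) after TMM scaling. The median difference of all rows, which moves with the scale, was -0.48 on deposited CPM (0.04 without and -1.04 with doxycycline) and -0.05 after TMM scaling (-0.02 without and -0.12 with doxycycline).

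**Figure D2:**
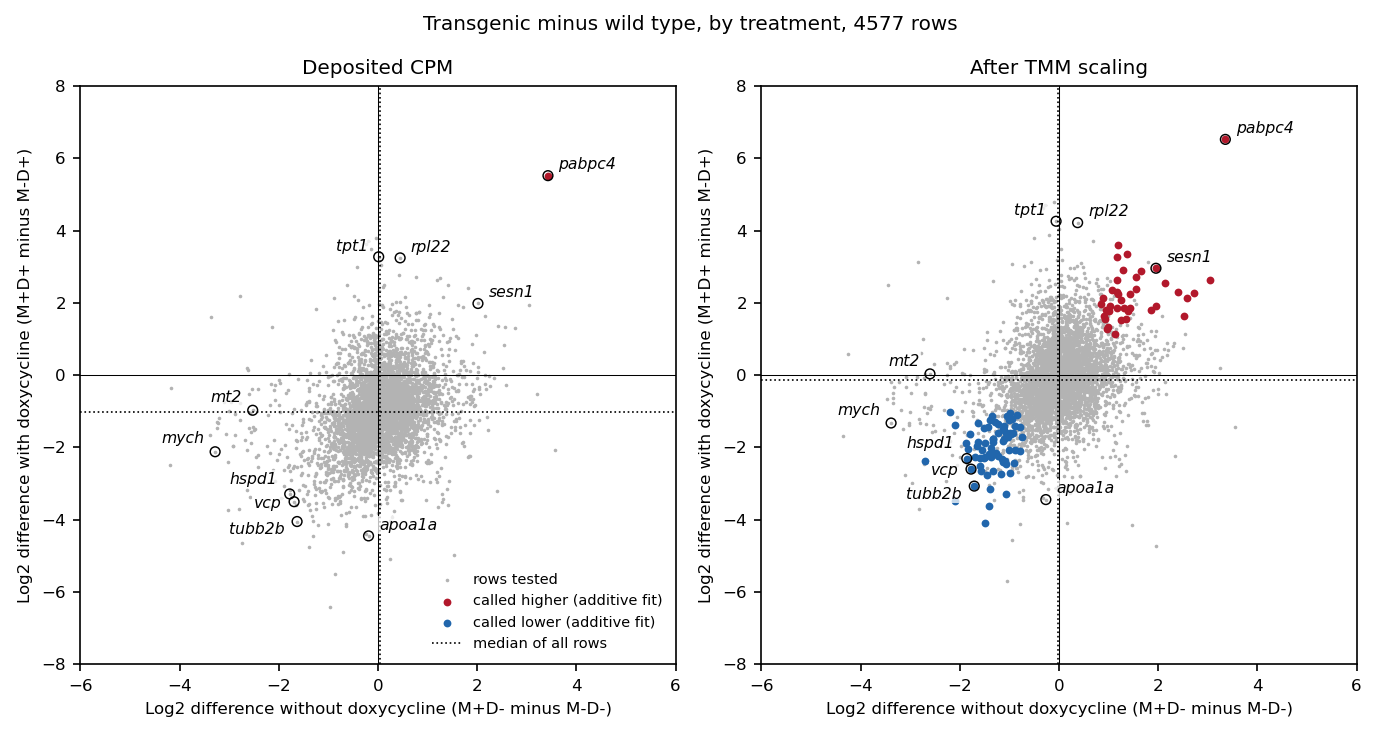
Each point is 1 of 4577 rows, with the log2 difference of M+D- minus M-D- on the x axis and of M+D+ minus M-D+ on the y axis, on deposited CPM (left) and after TMM scaling (right), and dotted lines mark the median of all rows. Rows called for the transgene are coloured, 1 on deposited CPM (pabpc4) and 112 after TMM scaling. All of these lie to the upper right or lower left of the origin, where the call itself tends to place them.

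The rows that stood higher with the transgene in both treatments are described first. On deposited CPM, all 4 transgenic libraries lay above all 4 wild-type libraries for 65 of 4577 rows (1.42%), and below them for 628 (13.7%). After TMM scaling, 239 rows lay above (5.22%) and 379 below (8.28%). Taken within each treatment, 2 libraries against 2, 129 rows lay above in both (2.82%) and 893 below in both (19.5%) on deposited CPM, and 383 (8.37%) and 594 (13%) after TMM scaling. Among rows without overlap that had a symbol, averaged 20 CPM or more and had the same sign in both treatments, 30 lay above and 251 below on deposited CPM, and those with the smallest p in each direction are named here.

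The level of pabpc4 was 1426 and 515 CPM in the M+D- libraries against 82.2 and 75.7 CPM in M-D-, and 6818 and 5239 CPM in M+D+ against 143 and 117 CPM in M-D+. The lowest transgenic library stood far above the highest wild-type one, and the M+D+ libraries were the highest of all. Its log2 difference was 4.47 ± 0.48 (SE), a 22.2-fold rise on the log2(CPM + 1) scale, with 3.43 without and 5.52 with doxycycline (limma adjusted p = 0.00862 for the transgene and 0.069 for the interaction). The difference was called by limma after TMM scaling (4.94, adjusted p = 0.0225) and by edgeR (adjusted p = 0.0358). It ran from 4.19 to 4.97 with 1 library left out, and its call on deposited CPM was lost without M+D+ library 2 (adjusted p = 0.0559, limma) and without either M-D+ library (0.0994 for library 1 and 0.0539 for library 2), and without the doxycycline covariate (0.10).

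The second of the higher rows was sesn1 (NM_001002660), a sestrin, known in mammals as a stress-induced inhibitor of the growth kinase complex TORC1. It stood at 67.9 and 28.5 CPM in M+D- against 8.18 and 12.6 CPM in M-D-, and at 91.9 and 107 CPM in M+D+ against 25.0 and 23.8 CPM in M-D+. The difference of sesn1 was 2.01 without and 1.98 with doxycycline on deposited CPM, but 1.95 and 2.96 after TMM scaling, and its mean on deposited CPM was 2.0 ± 0.34 (limma adjusted p = 0.067 on deposited CPM and 0.0225 after TMM scaling). The related growth regulator eif4ebp3l (NM_199683), a member of the family of proteins that bind and inhibit the cap-binding factor eIF4E, was listed at 14.7 and 15.0 CPM in M+D- against 3.86 and 6.29 CPM in M-D-. With doxycycline it stood at 36.7 and 33.2 CPM in M+D+ against 4.16 and 7.02 CPM in M-D+. All 4 transgenic libraries were again above all 4 wild-type ones (log2 difference 1.95, limma adjusted p = 0.067 on deposited CPM and 0.0349 after TMM scaling). Of 30 tested rows of growth factor and TOR signalling, these 2 were called higher and 0 lower after TMM scaling (0.852% and 1.59% of all rows). On deposited CPM, 2 rows of the list lay above without overlap (1.42% of all rows did) and 2 below (13.7% of all rows did). The 2 above were sesn1 and eif4ebp3l, and the 2 below were socs3a and another sestrin gene, sesn3. After TMM scaling 3 lay above (5.22% of all rows did) and 0 below (8.28% did). The median of the list was -0.25 on deposited CPM and 0.19 after TMM scaling, against -0.48 and -0.05 over all rows.

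Among enzymes of sugar metabolism, pgam2 (NM_201024), a phosphoglycerate mutase of glycolysis, stood at 35.7 and 30.5 CPM in M+D- against 10.2 and 17.1 CPM in M-D-, and at 63.9 and 78.9 CPM in M+D+ against 8.92 and 11.8 CPM in M-D+. Its groups did not overlap (log2 difference 1.96, limma adjusted p = 0.067 on deposited CPM and 0.0402 after TMM scaling). The aldolase aldoab was listed at 12.8 and 14.6 CPM in M+D- against 0.91 and 0.65 CPM in M-D-, and at 2.97 and 36.7 CPM in M+D+ against 1.19 and 3.62 CPM in M-D+. M+D+ library 1 lay below M-D+ library 2, so the 2 groups with doxycycline overlapped (log2 difference 2.49, limma adjusted p = 0.0783, and 0.0434 after TMM scaling). The fructose-bisphosphatase fbp1b (NM_213132), which acts in the opposite direction in gluconeogenesis, was listed at 268 and 277 CPM in M+D- against 139 and 149 CPM in M-D-, and at 176 and 365 CPM in M+D+ against 93.3 and 101 CPM in M-D+ (log2 difference 1.15, limma adjusted p = 0.0897 on deposited CPM and 0.0501 after TMM scaling). Of 19 tested glycolysis rows, pgam2 and aldoab were called higher and 0 lower after TMM scaling (0.852% and 1.59% of all rows). The list median was 0.16 on deposited CPM and 0.61 after TMM scaling, against -0.48 and -0.05 over all rows. On deposited CPM its sign differed by treatment, at 0.47 without and -0.30 with doxycycline (0.04 and -1.04 over all rows). After TMM scaling it was 0.43 without and 0.71 with doxycycline (-0.02 and -0.12 over all rows).

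The other higher rows are genes of varied function. The multi-tRNA synthetase scaffold gene aimp2 stood at 23.1 and 23.7 CPM in M+D- against 7.72 and 9.97 CPM in M-D-, and at 31.1 and 51.7 CPM in M+D+ against 17.2 and 19.0 CPM in M-D+. The RNA-binding protein gene rbm48 was highest without doxycycline, at 43.0 and 38.9 CPM in M+D- against 13.4 and 16.9 CPM in M-D-, and 25.9 and 27.6 CPM in M+D+ against 14.3 and 13.4 CPM in M-D+. The gene rcl1, whose yeast counterpart acts in the processing of small-subunit ribosomal RNA, stood at 287 and 302 CPM in M+D- against 139 and 174 CPM in M-D-, and at 264 and 338 CPM in M+D+ against 146 and 161 CPM in M-D+. All 3 of these passed limma after TMM scaling (adjusted p = 0.0225 for aimp2 and for rbm48, and 0.0441 for rcl1), with log2 differences on deposited CPM of 1.21, 1.14 and 0.94. The sulfate donor synthase gene papss2a (1.26), the plasma protein gene itih3b.2 (1.39) and zgc:171534 (1.29) also passed after TMM scaling. The ATP synthase subunit gene atp5mc3b (1.22) and the translation initiation factor subunit gene eif3s6ip (1.02) did not pass in either fit (limma adjusted p = 0.101 and 0.102 on deposited CPM, and 0.0798 and 0.0639 after TMM scaling).

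**Figure D3:**
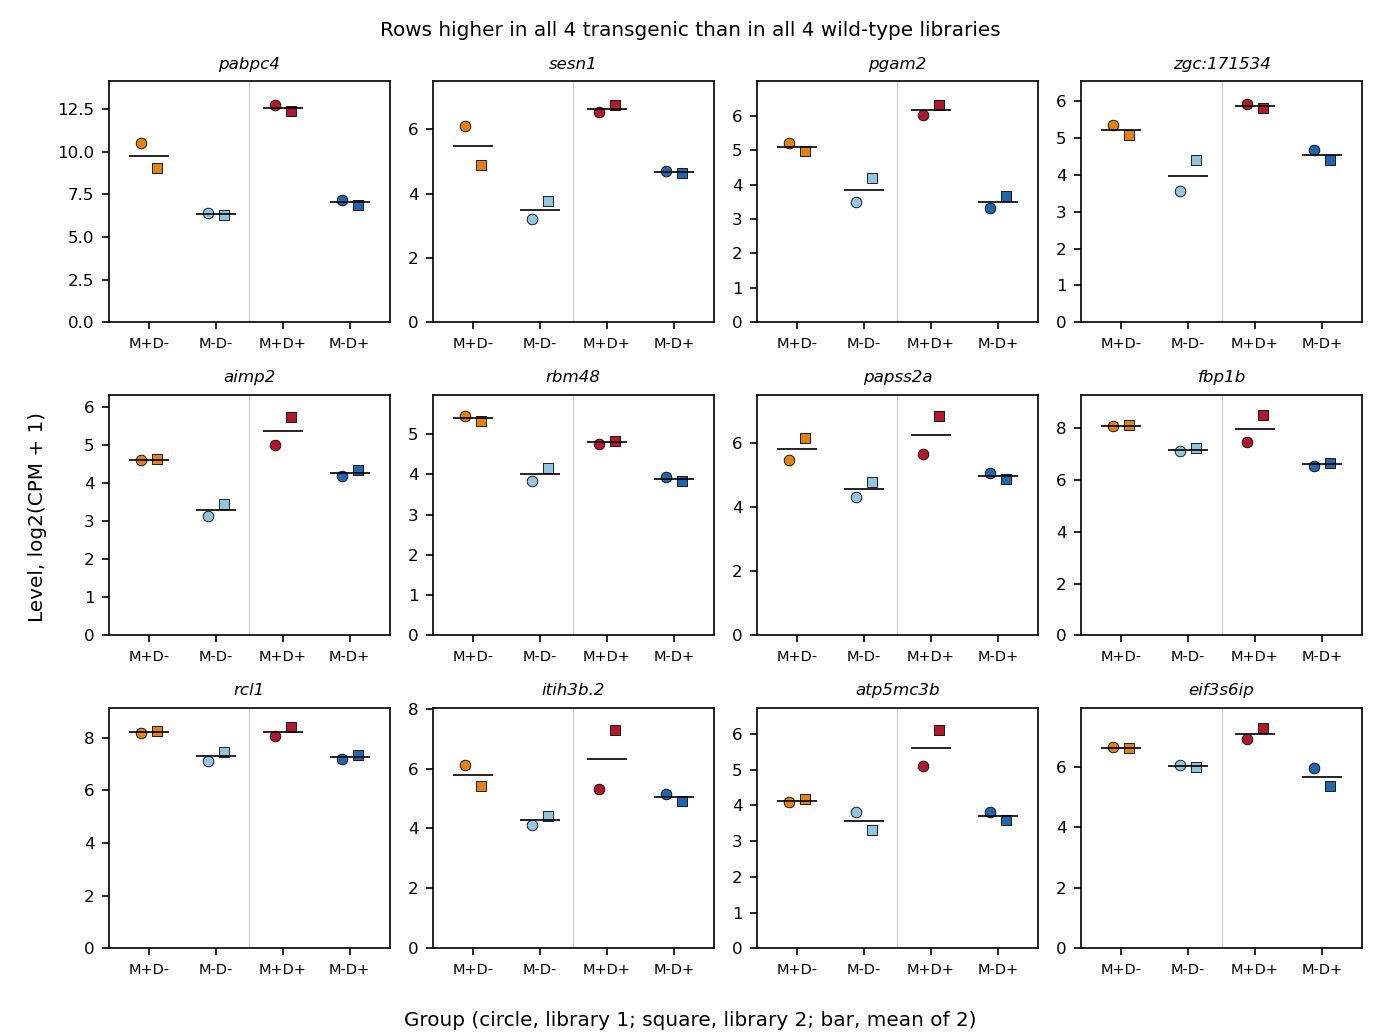
Levels of 12 genes as log2(CPM + 1) (y axis) in the 4 groups (x axis), transgenic left of wild type within each treatment, with circles for library 1, squares for library 2 and bars for the mean of 2. In each panel all 4 transgenic points lie above all 4 wild-type points, and the largest gap is that of pabpc4.

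The 11 lower rows described under the same rule are given next, most of them genes of protein folding, protein turnover, translation and the cytoskeleton. The ATPase gene vcp (NM_201481), whose product pulls ubiquitin-marked proteins out of membranes and complexes, was listed at 8.56 and 5.30 CPM in M+D- against 27 and 21.5 CPM in M-D-, and at 2.19 and 4.19 CPM in M+D+ against 57.1 and 35.8 CPM in M-D+. Its log2 difference was -2.60 ± 0.43, -1.69 without and -3.51 with doxycycline (limma adjusted p = 0.067 on deposited CPM and 0.0225 after TMM scaling). The mitochondrial chaperonin gene hspd1 (NM_181330) stood at 16.9 and 10.2 CPM in M+D- against 51.6 and 44.0 CPM in M-D-, and at 9.53 and 25.5 CPM in M+D+ against 194 and 136 CPM in M-D+. Both treatments showed the gap, and M-D+ was the highest group (log2 difference -2.54 ± 0.43, limma adjusted p = 0.067 on deposited CPM and 0.0225 after TMM scaling).

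The beta-tubulin gene tubb2b (NM_001037410) stood at 12.2 and 15.7 CPM in M+D- against 46.6 and 43.4 CPM in M-D-, and at 9.38 and 19.2 CPM in M+D+ against 316 and 181 CPM in M-D+. The transgenic levels lay in the same range in both treatments, and the wild-type levels were higher with doxycycline than without it. The difference was -1.63 without and -4.05 with doxycycline, and the interaction passed on deposited CPM (limma adjusted p = 0.0472) but not after TMM scaling (0.275). The RNA helicase gene eif4a1a (NM_198366), part of the cap-binding complex of translation initiation, showed the same arrangement, with 12.2 and 11.5 CPM in M+D- against 28.6 and 30.1 CPM in M-D-, and 10.2 and 10.5 CPM in M+D+ against 130 and 75.7 CPM in M-D+. The cysteinyl-tRNA synthetase gene cars1 was listed at 9.36 and 11.5 CPM in M+D- against 23.2 and 25.8 CPM in M-D-, and at 7.81 and 8.03 CPM in M+D+ against 115 and 58.0 CPM in M-D+. All 3 rows passed for the transgene after TMM scaling (limma adjusted p = 0.0225 for tubb2b and eif4a1a, and 0.0315 for cars1). Other tubulin rows were called in both directions after TMM scaling. The row of tuba5 was lower (log2 difference -1.74, limma adjusted p = 0.0413) and that of tuba8l2 higher (1.12, adjusted p = 0.042). A tag can be shared by related genes, such as tubulin genes or eif4a genes, where their 3' ends match. Whether they match here was not examined, and the sources used here do not give the rule for such tags.

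The chaperone calnexin (canx, NM_213448), which holds new glycoproteins in the endoplasmic reticulum, stood at 53.2 and 49.1 CPM in M+D- against 125 and 82.8 CPM in M-D-, and at 42.3 and 51.3 CPM in M+D+ against 326 and 291 CPM in M-D+ (log2 difference -1.84, limma adjusted p = 0.0673 on deposited CPM and 0.0408 after TMM scaling). The zinc transporter gene slc39a7 lay in the same order, with a log2 difference of -2.17, and passed after TMM scaling (limma adjusted p = 0.0348). The largest difference by size among these was that of fkbp11, a prolyl isomerase of the secretory pathway, at 4.78 and 18.8 CPM in M+D- against 101 and 73.9 CPM in M-D-, and at 11.1 and 53.8 CPM in M+D+ against 956 and 123 CPM in M-D+. Its spread was wide, and the log2 difference of -3.39 ± 0.69 missed the threshold on both scales (limma adjusted p = 0.0673 on deposited CPM and 0.0501 after TMM scaling). The row of prrc1 passed after TMM scaling, and the co-chaperone gene dnaja2a and the stress gene gadd45ba did not (limma adjusted p = 0.0402, 0.0592 and 0.0613), with log2 differences on deposited CPM of -1.86, -1.49 and -1.68.

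**Figure D4:**
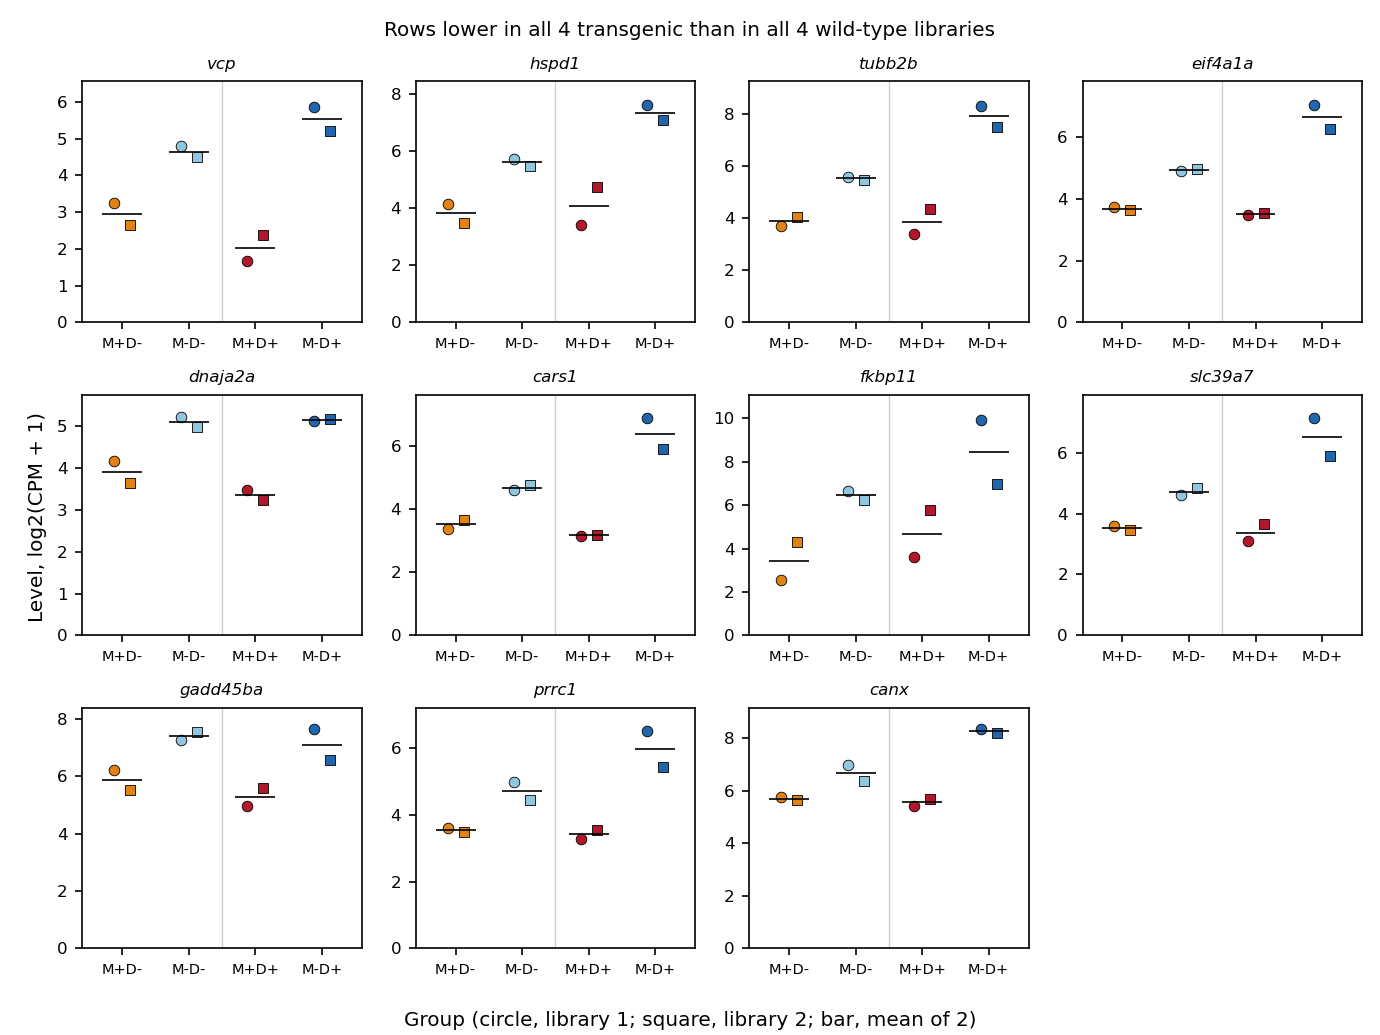
Levels of 11 genes as log2(CPM + 1) (y axis) in the 4 groups (x axis), transgenic left of wild type within each treatment, with circles for library 1, squares for library 2 and bars for the mean of 2. In each panel all 4 transgenic points lie below all 4 wild-type points, and for most genes M-D+ is the highest group.

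Gene lists were then read as counts and medians beside those of all rows. The lists and genes were chosen with earlier results of these data known, so they are descriptions. The median of all rows was -0.48 on deposited CPM and -0.05 after TMM scaling. Some rows reached 5 CPM in wild-type libraries alone, such as dnajc3b, ostc, nol7, ptges3b, hspa4a and elovl6. Their lower transgenic level follows in part from the filter. Of 52 tested rows of endoplasmic reticulum folding and secretion, 18 had all 4 transgenic below all 4 wild-type libraries on deposited CPM (34.6%, against 13.7% of all rows) and 19 after TMM scaling (36.5%, against 8.28%). The list median was -1.36 on deposited CPM and -0.92 after TMM scaling. After TMM scaling 6 rows fell (11.5%, against 1.59% of all rows), namely dnajc3b, ostc, dnajb11, dnajc3a, canx and tmed2, and 0 rose (0.852% of all rows). The co-chaperone gene dnajc3b was listed at 4.78 and 3.76 CPM in M+D- against 13 and 12.8 CPM in M-D-, and at 4.53 and 4.54 CPM in M+D+ against 72.5 and 34.7 CPM in M-D+. The oligosaccharyltransferase subunit gene ostc had the same order (log2 difference -2.10, limma adjusted p = 0.0673 on deposited CPM and 0.0386 after TMM scaling).

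Markers of the exocrine pancreas, a secretory tissue near the liver, were also lower on average in transgenic livers. Their summed level was 1400 and 2512 CPM in M+D- against 4312 and 2160 CPM in M-D-, and 754 and 1167 CPM in M+D+ against 3216 and 1610 CPM in M-D+. The transgenic and wild-type ranges overlapped, through M+D- library 2. Of 18 tested pancreas rows, 15 were lower in both treatments on deposited CPM (42.2% of all rows were) and 13 after TMM scaling (35% of all rows), and 0 passed the test for the transgene. The defining markers prss1, cpa5, cel.1 and ela2l were present in all 8 libraries, and ctrb1 was not listed. The lipase gene cel.1, for example, was listed at 78.3 and 149 CPM in M+D- against 302 and 170 CPM in M-D-, and at 55.3 and 35.6 CPM in M+D+ against 185 and 80.4 CPM in M-D+. The part of this signal in the secretory-pathway values was not tested.

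The proteasome, the complex that degrades ubiquitin-marked proteins, showed the same direction. Of 38 tested rows, 15 lay below without overlap on deposited CPM (39.5%, against 13.7% of all rows) and 17 after TMM scaling (44.7%, against 8.28%), with list medians of -0.96 and -0.53. After TMM scaling the regulatory-particle genes psmd7 and psmc4 fell (5.26%, against 1.59% of all rows). The assembly chaperone gene psmg3 rose (1 of 38, against 0.852% of all rows). The level of psmd7 was 3.59 and 6.41 CPM in M+D- against 13.4 and 13.2 CPM in M-D-, and 3.44 and 5.24 CPM in M+D+ against 42.8 and 35.8 CPM in M-D+ (log2 difference -2.11, limma adjusted p = 0.067 on deposited CPM and 0.0231 after TMM scaling). Of 39 tested chaperonin and heat shock rows, 4 fell after TMM scaling (10.3%, against 1.59% of all rows), namely hspd1, ptges3b, dnajb11 and hspa4a, and 0 rose (0.852% of all rows). The median of that list was -0.60 on deposited CPM and -0.20 after TMM scaling, against -0.48 and -0.05 over all rows.

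Genes of ribosome production, the process Myc is best known for, are given next. The list of ribosome biogenesis and the nucleolus held 38 tested rows, of which 17 lay below without overlap on deposited CPM (44.7%, against 13.7% of all rows) and 10 after TMM scaling (26.3%, against 8.28%). None of the 38 lay above on either scale, where 1.42% of all rows did on deposited CPM and 5.22% after TMM scaling. The gene rcl1, described with the higher rows, is not in this list. The list median was -1.09 on deposited CPM and -0.67 after TMM scaling, and nol7, tsr1 and rrs1 fell after TMM scaling (7.9%, against 1.59% of all rows). The level of tsr1, needed for maturing the small ribosomal subunit, was 7.17 and 4.86 CPM in M+D- against 12.7 and 16.3 CPM in M-D-, and 5.47 and 8.03 CPM in M+D+ against 52.9 and 25.6 CPM in M-D+. Of 40 tested mitochondrial ribosomal protein rows, 14 lay below without overlap on deposited CPM (35.0%, against 13.7% of all rows) and 7 after TMM scaling (17.5%, against 8.28%). Of these 40, 0 lay above on deposited CPM (1.42% of all rows did) and 2 after TMM scaling (5.22% of all rows did). The rows mrpl53, mrpl24 and mrpl46 fell after TMM scaling (7.5%, against 1.59% of all rows).

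Cytosolic ribosomal protein rows differed by treatment. They took 26.5% and 31.8% of tags in M+D- against 37.1% and 31.5% in M-D-, and with doxycycline 45.2% and 46.4% in M+D+ against 33.4% and 20.2% in M-D+. The transgenic libraries were lower on average without doxycycline and higher with it, by -5.18 and 18.98 percentage points. The mean of both differences, 6.90 points, gave p = 0.278 in an exact permutation test, two-sided, with labels permuted within each treatment (36 arrangements, smallest possible p 0.0556, so the design could not reach 0.05). Of 71 tested rows 0 passed for the transgene on deposited CPM or after TMM scaling, while with doxycycline 23 rose and 1 fell on deposited CPM (2.49% and 41.7% of all rows), and 62 rose and 0 fell after TMM scaling (7.73% and 7.3% of all rows, limma). The large-subunit gene rpl22 stood at 33.5 and 26.5 CPM in M+D- against 21.4 and 21.9 CPM in M-D-, and at 194 and 251 CPM in M+D+ against 26.8 and 18.8 CPM in M-D+, and its interaction passed (limma adjusted p = 0.0412). The growth-related gene tpt1 differed by 0.01 without and 3.27 with doxycycline (limma adjusted p for the interaction = 0.0428 on deposited CPM and 0.0507 after TMM scaling).

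Of 53 tested translation initiation and elongation factor rows, pabpc4 and eif4ebp3l rose and eif4a1a and eif4e1c fell after TMM scaling (0.852% and 1.59% of all rows). The list median was -0.10 on deposited CPM and 0.36 after TMM scaling, so its sign depended on the scaling. It lay above the median of all rows on both scales (-0.48 and -0.05). Of 21 tested rows of textbook Myc-induced targets, 0 passed on either scale (limma). On deposited CPM 4 lay below without overlap (19.0%, against 13.7% of all rows) and 0 above (1.42% of all rows did). After TMM scaling 4 lay below (19.0%, against 8.28% of all rows) and 1 above (5.22% of all rows did). Their median was -0.55 on deposited CPM and -0.15 after TMM scaling, close to the -0.48 and -0.05 of all rows. The DNA repair nuclease gene apex1 had the smallest p among them, at 5.58 and 4.20 CPM in M+D- against 14.3 and 15.8 CPM in M-D-, and 8.91 and 5.94 CPM in M+D+ against 37.5 and 19.7 CPM in M-D+ (log2 difference -1.61, limma adjusted p = 0.0673 on deposited CPM and 0.0592 after TMM scaling). Of 40 measured S phase and DNA replication rows, 8 were tested. Without overlap, 4 lay below (13.7% of all rows did) and 0 above (1.42% did) on deposited CPM. After TMM scaling 3 lay below (8.28% did) and 0 above (5.22% did). Of the 4, rrm2l reached 5 CPM in wild-type libraries alone, so its place below follows in part from the filter. None of the 8 passed on either scale. Among 16 tested lipid and cholesterol synthesis rows, tm7sf2 rose and elovl6 and hmgcs1 fell after TMM scaling (0.852% and 1.59% of all rows). The row of elovl6 reached 5 CPM in the M-D+ libraries alone. The level of hmgcs1, an early enzyme of cholesterol synthesis, was 3.98 and 0.88 CPM in M+D- against 18.2 and 16.7 CPM in M-D-, and 8.44 and 20.9 CPM in M+D+ against 400.0 and 53.7 CPM in M-D+.

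**Figure D5:**
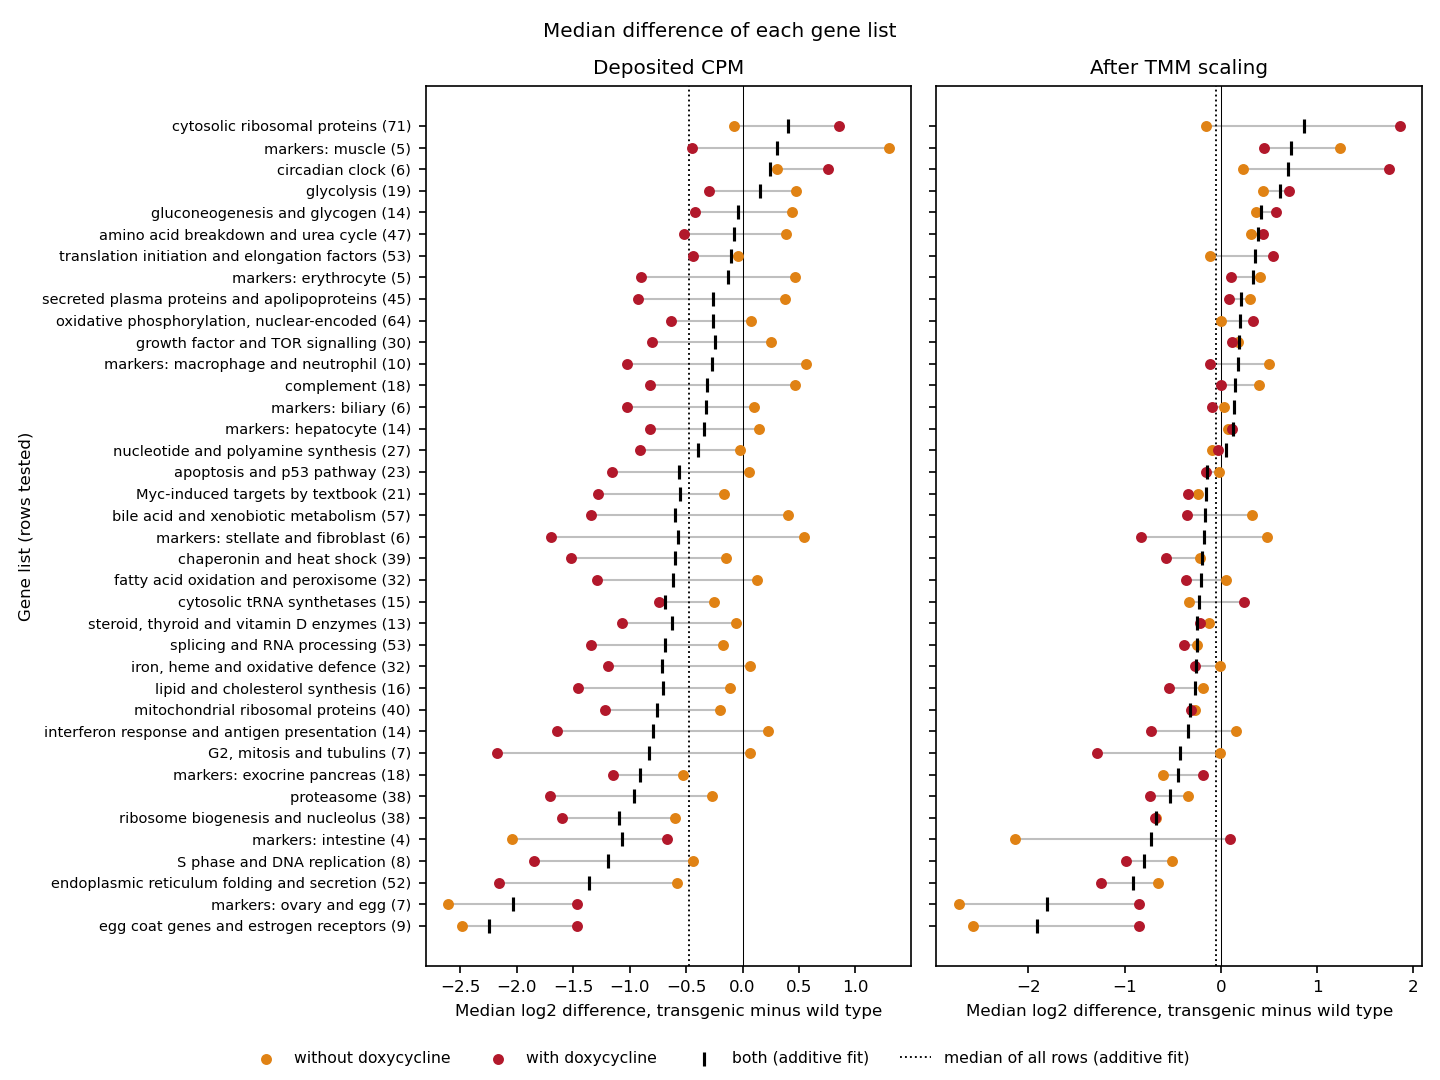
Each line is a gene list with at least 3 tested rows (y axis, rows tested in brackets), with the median log2 difference of transgenic minus wild type (x axis) without doxycycline in orange, with doxycycline in red and from the additive fit as a black tick, on deposited CPM (left) and after TMM scaling (right). The dotted line is the median of all rows, -0.48 on deposited CPM and -0.05 after TMM scaling, and the list of endoplasmic reticulum folding and secretion lies to its left on both scales.

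Endogenous Myc family genes, and the genes whose promoters the transgene uses, were examined too. They do not check the transgene, since which Myc coding sequence it holds is not stated in the labels. The level of mych was 1.0 and 3.09 CPM in M+D- against 40.9 and 17.6 CPM in M-D-, and 0.63 and 6.28 CPM in M+D+ against 25.6 and 7.48 CPM in M-D+. On deposited CPM all 4 transgenic libraries lay below all 4 wild-type ones, but not after TMM scaling. The log2 difference of -2.70 ± 0.59 on deposited CPM missed the threshold (limma adjusted p = 0.0673 on deposited CPM and 0.0763 after TMM scaling). The level of mycb was 27.5 and 20.6 CPM in M+D- against 70.7 and 73.7 CPM in M-D-, and 2.19 and 24.4 CPM in M+D+ against 115 and 22.4 CPM in M-D+. The groups with doxycycline overlapped, through M+D+ library 2 and M-D+ library 2 (log2 difference -2.05 ± 0.66, limma adjusted p = 0.107). The binding partner gene max had a difference of -0.46 on deposited CPM, with the opposite sign in edgeR and DESeq2, and the reporter's promoter gene krt4 one of -1.0 (limma adjusted p = 0.325 and 0.178). The gene fabp10a, whose promoter drives the transactivator, differed by 0.17 ± 0.31 (limma adjusted p = 0.743, with the sign turned when M-D+ library 1 is left out). The filter on low values removed myca.

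Other rows went opposite ways in the 2 treatments. The vitamin D hydroxylase gene cyp24a1 was listed at 15.7 and 235 CPM in M+D- against 430 and 430 CPM in M-D-, and at 77.0 and 48.5 CPM in M+D+ against 29.1 and 5.21 CPM in M-D+, lower with the transgene in 1 treatment and higher in the other. The fatty acid-binding protein gene fabp1b.1 and the cystatin gene cst14a.2 had the same signs, but for fabp1b.1 the M-D+ libraries lay at 108 and 1.36 CPM, on both sides of the M+D+ libraries. In the other sense, the dehydrogenase gene dhrs11b.2 was listed at 27.5 and 69.4 CPM in M+D- against 9.31 and 6.07 CPM in M-D-, and at 6.09 and 37.4 CPM in M+D+ against 253 and 89.7 CPM in M-D+. Of these 4 rows, the interaction passed for dhrs11b.2 (limma adjusted p = 0.0428 on deposited CPM and 0.121 after TMM scaling). The rows of anxa4 and actc1a also changed sign, but the libraries of a group were far apart, with 475 and 229 CPM of anxa4 in M+D- against 224 and 36.4 CPM in M-D-, and 23.4 and 19.6 CPM in M+D+ against 17.8 and 590 CPM in M-D+.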

How the data were processed

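Gene expression was measured by 3' RNA-SAGE in 8 liver libraries, from total RNA extracted with TRIzol, per the labels' protocols. The authors deposited values in CPM per transcript row, with a RefSeq accession. Aligner, reference build and tag assignment: not given in the sources used here. A row that a library does not list was taken as 0. Within a library each value is a multiple of the worth of 1 tag, so whole tags were recovered, for 100% of values of 20 tags or fewer and 99.99% or more of the whole table, within 0.1. Symbols were matched by accession to RefSeq genes (assembly GRCz12tu), for names only (10410 of 15600 rows, and 3746 of 4577 tested). The 122 rows without an accession were kept.

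R 4.3.3 and limma 3.58.1 gave the main test, fitted to log2(CPM + 1) with a mean-variance trend, no robust step, and transgene and doxycycline as additive terms (5 residual degrees of freedom, 5.64 prior). Within-treatment differences and the interaction came from a fit of 4 group means (4 residual, 4.07 prior). Tests were two-sided, adjusted over 4577 rows by Benjamini-Hochberg. The pseudocount of 1 understates changes of low rows. edgeR 4.0.16 (quasi-likelihood) and DESeq2 1.42.0 (Wald) were run on recovered tags. Other alternatives were TMM scaling, pseudocounts of 0.5 and 5, a filter at 20 CPM or none, robust variance, a replicate block and leaving out each library. Tested on simulated data, the main test called 14 of 92 rows changed by 1 log2 unit (15.2%), 78 of 93 changed by 2 (83.9%) and 5 of 4110 unchanged (0.122%). The simulated rows had no doxycycline effect, no interaction and no shift in composition between libraries. These rates therefore need not hold for the real libraries. No pair of libraries matched within counting error (chi-square over its degrees of freedom was 46.6 or more). Separate preparations of the same RNA can also differ by more than that, so this cannot exclude technical repeats. No molecular identifiers are named in the labels, so counting limits cover counting error only.

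Named genes were those among rows that had a symbol, averaged 20 CPM or more, had the same sign in both treatments and did not overlap between 4 transgenic and 4 wild-type libraries: 12 each way, called rows first and then by smallest p (1 of the lower is not reported here). Added were 3 opposite rows in each sense, rows of 40 lists (called rows, or 2 with the smallest p) and myca, mycb, mych, max, fabp10a, krt4 and tpt1. Genes named only as called after TMM scaling (such as psmg3, rrs1, tm7sf2 and tmed2), and sesn3 and socs3a, were chosen after their values were seen. The comparison, its members and the lists were chosen with earlier results of these data known, and list members that matched only by name were removed after seeing the data.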

Additional observations from a re-analysis of the deposited data

Results flagged for a closer look

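In the 4 transgenic or the 4 wild-type libraries, 1 library stood far from the other 3 for 9 of the genes named by the rule, among 192 sets of 4 examined. Chance alone gives such a gap in about 1 of 20 sets. The lowest wild-type library was M-D+ library 2 for eif3s6ip (40.3 CPM) and fabp1b.1 (1.36 CPM), and the highest was M-D+ library 1 for bcat1 (254 CPM). Among transgenic libraries, M+D- library 2 was highest for actc1a (568 CPM) and M+D- library 1 for cyp20a1 (7.37 CPM). M+D+ library 1 was lowest for elovl6 (0 CPM) and mycb (2.19 CPM), and M+D+ library 2 for tnni1c (43.3 CPM) and acta1a (75.1 CPM). Each set holds libraries of both treatments.

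The difference between transgenic and wild-type livers itself differed between the treatments for 15 named genes on deposited CPM, by limma's interaction test at an adjusted p under 0.05. The interaction, with minus without doxycycline on the log2 scale, was positive for tpt1 (3.26) and rpl22 (2.80). It was negative for dhrs11b.2 (-5.59), the interferon-response genes ifi27.1 (-4.64) and rsad2 (-2.94), the apolipoprotein gene apoa1a (-4.26) and the fatty acid elongase gene elovl6 (-3.38). It was also negative for the tubulin genes tuba8l4 (-2.69) and tubb2b (-2.42), for acadvl (-2.26), lect2.2 (-2.12), cars1 (-2.05), atp5mc3a (-2.04), eif4a1a (-1.90) and canx (-1.72). After TMM scaling the same test called 5 rows, of which rpl22 is among these 15, and on deposited CPM it called 0 rows in all without M+D+ library 1, M+D- library 2 or either M-D- library, 1 when M+D- library 1 was left out, and 202 when M+D+ library 2 was. For apoa1a, for example, levels were 1453 and 1407 CPM in M+D- against 1590 and 1679 CPM in M-D-, and 60.8 and 156 CPM in M+D+ against 1339 and 3462 CPM in M-D+.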

How the results depend on the processing

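The count of rows called for the transgene, 1 on deposited CPM, was 1100 with 4 group means, 446 with DESeq2, 112 after TMM scaling, 37 with edgeR, 2 with a total that leaves out ribosomal proteins and 0 without the doxycycline covariate, and it ranged from 0 to 2 with 1 library left out. After TMM scaling, leaving out 1 library gave 0 to 48 (41 without M-D- library 2), which was added after seeing the data. Without doxycycline the count of 0 became 38 with DESeq2 and ranged from 0 to 1 with 1 library left out. With doxycycline the count of 2023 became 705 with DESeq2, 688 after TMM scaling, 601 with edgeR and 1263 with a filter at 20 CPM, and ranged from 1057 (without M+D+ library 1) to 1792. The interaction's 377 became 161 with DESeq2, 5 after TMM scaling, and 0 with edgeR or no filter, and ranged from 0 to 511. The ribosomal share difference ranged from 3.61 to 10.2 points. Across the named genes, with the 6 named for opposite signs in the 2 treatments judged by their interaction and the others by the transgene difference, 1760 of the settings tried kept the direction and the side of the threshold, 192 passed it newly, 14 lost it and 3 turned sign, namely max with DESeq2 (0.049) and edgeR (0.015) and fabp10a, whose difference ranged from -0.13 (without M-D+ library 1) to 0.43 (without M-D+ library 2). With 1 library left out, the lone library of its group is assumed to vary like the other groups. The causes were not tested.

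Library numbers 1 and 2 are shared by all groups. Deviations of same-numbered libraries correlated by -0.333 to 0.045, which does not show that equal numbers pair the samples and cannot exclude it. With a replicate block the counts were 1 for the transgene, 0 without doxycycline, 1699 with doxycycline and 6 for the interaction. With the numbers of the transgenic libraries crossed, a pairing added after seeing the data, the replicate block gave 4 for the transgene.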

Other observations

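Egg coat genes are made in the ovary and, in some fish, in the liver of females. In a list of these and of estrogen receptors, 8 of 9 tested rows were lower in transgenic livers in both treatments. This held on deposited CPM (42.2% of all rows were) and after TMM scaling (35% of all rows), with list medians of -2.24 and -1.91. None of the 9 passed the test (limma). The summed level of the list was 35.9 and 97.9 CPM in M+D- against 94.3 and 294 CPM in M-D-. With doxycycline it was 31.6 and 152 CPM in M+D+ against 611 and 69.8 CPM in M-D+, so the groups overlapped in both treatments. The egg coat gene zp3.1 was listed at 0.80 and 0 CPM in M+D- against 2.95 and 18 CPM in M-D-, and at 0 and 1.40 CPM in M+D+ against 5.94 and 3.17 CPM in M-D+. The paralog zp3b was listed at 1.59 and 1.99 CPM in M+D- against 7.95 and 26 CPM in M-D-, and at 0.16 and 2.79 CPM in M+D+ against 7.73 and 2.94 CPM in M-D+. Both genes passed the filter on low values through wild-type libraries alone, so their lower transgenic level follows in part from the filter. The 8 of 9 and the list medians include these genes and share this limit. Setting them beside all rows does not remove it. In M-D- library 2 both genes stood highest, and the sex of the fish is not in the labels used here.

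The metal-binding protein gene mt2 was listed at 156 and 102 CPM in M+D- against 619 and 866 CPM in M-D-, and at 206 and 245 CPM in M+D+ against 554 and 354 CPM in M-D+. On deposited CPM all 4 transgenic libraries lay below all 4 wild-type ones, but not after TMM scaling. The log2 difference on deposited CPM was -1.75 ± 0.39 (limma adjusted p = 0.0673), with -2.53 without and -0.97 with doxycycline. After TMM scaling the difference with doxycycline was 0.03, so the direction in that treatment depended on the scaling.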
